A study of Homo sapiens with 4 samples.

Results

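Genes of RNA polymerase III (Pol III), 8 in number, were followed in ChIP-seq region lists from MCF10A cells: RN7SK, RMRP, RPPH1, RN7SL1, RN7SL2, VTRNA1-1, RNY3 and RNY1. A region belonged to a gene when it overlapped the gene's span in the hg19 build widened by 2 kb on each side. The spans were chr6:52860418-52860749 for RN7SK, chr9:35657748-35658015 for RMRP, chr14:20811230-20811570 for RPPH1, chr14:50053297-50053596 for RN7SL1, chr14:50329271-50329567 for RN7SL2 and chr5:140090859-140090957 for VTRNA1-1. RNY3 and RNY1 lay in 1 shared span, chr7:148680800-148684350, so the 8 genes gave 7 windows. The windows held 18 of the 128734 regions of the 3 lists: 5 of 11604 for 53BP1, 8 of 62530 for Pol II phosphorylated on serine 5 (S5p) and 5 of 54600 for Pol II phosphorylated on serine 2 (S2p). MCF10A is an established, non-tumour human breast epithelial line, grown here under normal conditions, with no other genotype or treatment in any group. 53BP1 is a chromatin-bound DNA repair factor and a partner of p53. The S5p form of Pol II is typical of promoters and early transcription, and the S2p form of gene bodies. With 1 library for each antibody, no value has a replicate spread and no difference was tested. The input library was not analysed here.

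Pol III makes short noncoding RNAs that other machinery depends on. RN7SK encodes 7SK RNA, which keeps the elongation kinase P-TEFb inactive. RPPH1 and RMRP encode the RNA subunits of RNase P, which trims tRNA precursors, and RNase MRP, which acts on ribosomal RNA precursors. RN7SL1 and RN7SL2 encode 7SL RNA, the scaffold of the signal recognition particle. VTRNA1-1 encodes a vault RNA, and RNY1 and RNY3 encode Y RNAs, which bind the Ro60 protein. The promoters of RN7SK, RPPH1, RMRP and the Y RNA genes lie before the gene, with a distal element that often holds an octamer, a proximal element and a TATA box. VTRNA1-1 and the 7SL genes carry promoter elements inside the gene. Pol II is known to be found beside some active Pol III genes.

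Several members have a Pol II gene close by. In the RefSeq gene table of GRCh38.p14, used for names and gene order only, PARP2 lies next to RPPH1 and CCDC107 next to RMRP. Both lie on the upstream side of the member, and GSTA4 and CILK1 flank RN7SK. RN7SL1 overlaps RPS29, and RN7SL2 overlaps the long noncoding RNA LOC105378179. VTRNA1-1 lies between ZMAT2 and VTRNA1-2 and overlaps LOC105378198. Whether these members lie wholly inside the genes they overlap was not examined. RNY3 and RNY1 are neighbours, followed by GHET1. The lists do not carry strand, so signal of a Pol III gene and of the Pol II gene beside it cannot be told apart.

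The promoter windows of PARP2 and CCDC107 are shown because RPPH1 and RMRP are read away from them, and because the 53BP1 and S5p regions at both members reached into the side where these genes begin. They come from RefSeq (GRCh38.p14), run from 250 bases before to 50 after the gene's start, and are on the + strand. The PARP2 window is chr14:20343385-20343684 and the CCDC107 window is chr9:35658042-35658341. Capitals mark exact matches, on either strand, to the motifs searched.
PARP2: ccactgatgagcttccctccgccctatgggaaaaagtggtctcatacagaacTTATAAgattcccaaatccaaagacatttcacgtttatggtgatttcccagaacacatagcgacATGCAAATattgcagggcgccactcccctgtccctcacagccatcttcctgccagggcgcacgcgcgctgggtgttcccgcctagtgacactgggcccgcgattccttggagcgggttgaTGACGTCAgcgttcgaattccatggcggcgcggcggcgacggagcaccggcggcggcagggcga
CCDC107: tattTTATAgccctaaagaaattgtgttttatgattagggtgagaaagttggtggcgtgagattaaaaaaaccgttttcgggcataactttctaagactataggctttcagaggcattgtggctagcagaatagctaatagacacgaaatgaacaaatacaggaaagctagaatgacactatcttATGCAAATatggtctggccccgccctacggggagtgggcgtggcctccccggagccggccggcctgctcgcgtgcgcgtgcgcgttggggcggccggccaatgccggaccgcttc

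In the PARP2 window, TATAA was found on both strands in overlapping matches from base -198 to -193, counted from the start of PARP2. The octamer ATGCAAAT lay from -134 to -127, and the CRE, TGACGTCA, which reads the same on both strands, from -14 to -7. In the CCDC107 window, TATAA was found on the strand opposite to CCDC107 from -246 to -242 and the octamer ATGCAAAT from -65 to -58. In both windows the TATAA match thus lay farther from the protein-coding gene than the octamer did. Of 35116 promoter windows of the same length in the table, 20.4% held TATAA, 1.77% the octamer and 1.85% the CRE, both strands counted. The ZNF143 site (2.12% of windows), the A box (0.849%) and the B box (0.185%) had no match in either window. The GSTA4 window beside RN7SK held none of the 6 motifs.

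Every widened window held an S5p region, and 5 of 7 held 53BP1 and 5 of 7 held S2p. Over the unwidened spans, these counts were 5 for S5p, 2 for 53BP1 and 4 for S2p. Windows of other genes were not counted for comparison. RMRP, RPPH1, RN7SL1 and RN7SL2 had all 3. RN7SK had S5p and 53BP1 without S2p, VTRNA1-1 had S5p and S2p without 53BP1, and the RNY3 and RNY1 window had S5p alone. The authors' fold enrichment over background ranked each region within its own list. In the S5p list the strongest region of each window ranked between the 78.0th percentile, at VTRNA1-1, and the 97.97th, at RN7SL1. In the 53BP1 list the range was wider, from the 26.2nd percentile at RMRP to the 99.8th at RPPH1, and in the S2p list it ran from the 29.2nd at RN7SL2 to the 99.7th at RN7SL1. Ranked by −log10 q-value, the RN7SL2 region was at the 60.02nd percentile of the S2p list. Median percentiles over the windows with a region were 73.2 for 53BP1, 88.4 for S5p and 95.8 for S2p, where 50 is the median of each list by construction.

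**Figure D1:**
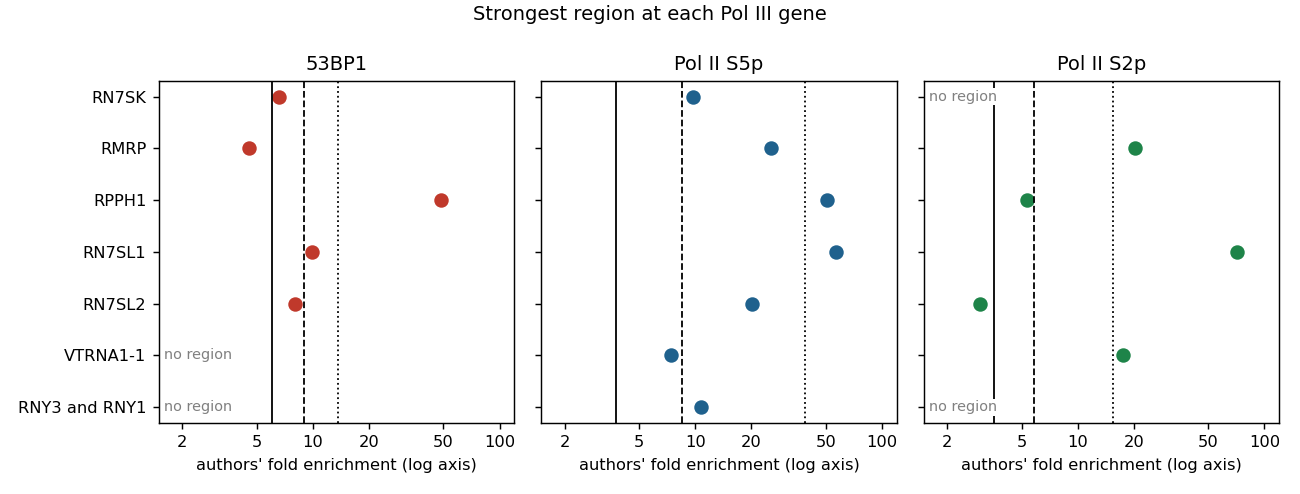
The authors' fold enrichment (log axis) of the strongest region in each of the 7 windows, 1 panel per list, each list 1 library. Vertical lines mark the median (solid), the 80th (dashed) and the 95th percentile (dotted) of all regions of the list. RPPH1 stands above the other members for 53BP1 (48.7), while for S2p it lies below the dashed line (5.36).

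RPPH1 carried the strongest 53BP1 region of the group. The 53BP1 region, chr14:20810628-20812000 (hg19), had a fold of 48.7 and ranked 22 of 11604. Its S5p region, chr14:20810354-20812743, had a fold of 51.1 and ranked 1685 of 62530. The S2p region, chr14:20810979-20812134, had a fold of 5.36 and ranked 12566 of 54600. RPPH1 thus stood higher in the 53BP1 list than in the S5p list, and lower in the S2p list than in both. All 3 regions covered the whole 341 bp gene, and all 3 summits lay inside it, at 182 bp (53BP1), 94 bp (S5p) and 71 bp (S2p) from its start. All 3 regions also reached past the start of RPPH1 on the PARP2 side. The hg19 start of PARP2 was not at hand, so whether the regions include it was not measured. RPPH1 was the member whose summits fell within the transcribed sequence in every list. Its 53BP1 and S5p regions were the strongest of their lists within 100 kb, among 4 and 20 regions, while its S2p region ranked 8 of 27. Farther on the PARP2 side, chr14:20817367-20830863 was a 13497 bp S2p region of fold 11.4 with its summit at 20827928.

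The region at RPPH1 was also set beside S5p regions of like strength. The S5p list was divided by fold into 20 equal bands of 5%, and RPPH1 fell in the highest, with S5p folds from 38.7 to 300.1. In that band 3091 of 3127 regions held 53BP1 (98.8%), with a median for the highest 53BP1 fold on the region of 8.82 and a 5th to 95th percentile range of 4.61 to 20.8. A 53BP1 fold at or above that of RPPH1 occurred on 0.712% of those 3091 regions. For S2p the band's median was 9.34, and 87.5% of its regions with S2p had a fold at or above the 5.36 of RPPH1. The S5p region of RPPH1 was 2390 bp wide, against a band median of 4390 bp, and 24.1% of the band was as narrow or narrower. RPPH1 therefore combined a high 53BP1 fold with a low S2p fold and a compact S5p region relative to regions of similar S5p fold. Within the whole S2p list, its S2p region was at the 76.99th percentile by fold and at the 87.9th by −log10 q-value.

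RMRP, the other RNase RNA gene, differed from RPPH1 in each of these respects. Its 53BP1 region, chr9:35658213-35658952, had a fold of 4.57, below the 53BP1 list's median of 6.02, and began 198 bp before the start of RMRP. The 53BP1 summit lay 825 bp from the gene, on the CCDC107 side. The S5p region, chr9:35657600-35665952, covered the gene and reached 8353 bp, with a fold of 25.6 and a summit 7281 bp from RMRP. The S2p region, chr9:35658094-35665485, had a fold of 20.3, a width of 7392 bp and a summit 4597 bp away, and it ended 79 bp short of RMRP. Each region carries 1 deposited fold, so the lists give no separate S5p or S2p value at RMRP itself. A further 53BP1 region on the same S5p region, chr9:35664797-35665569, had a fold of 6.95. Of the pair of 53BP1 regions, the one at RMRP was the weaker.

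RN7SK had no S2p region and no region of any list over the gene itself. Its S5p region, chr6:52859697-52860326, had a fold of 9.70 and a width of 630 bp, and ended 92 bp before the gene. The 53BP1 region, chr6:52859784-52860239, had a fold of 6.62 and ended 179 bp before it. The summits lay 358 bp (S5p) and 372 bp (53BP1) upstream of the start, on the GSTA4 side, 14 bp apart. The hg19 start of GSTA4 was not at hand, so its distance from these summits was not measured. The lists do not show whether the summits belong to GSTA4 or to RN7SK. A weak S5p region of fold 2.66, chr6:52858555-52858949, lay farther out, 1469 bp from the gene. In the band of S5p regions that RN7SK belongs to, with folds from 8.49 to 13.6, 27.4% held 53BP1 and 47.3% held S2p. Among the 857 of these with 53BP1, 16.1% had a 53BP1 fold at or above that of RN7SK. The S5p region was narrower than most of this band: 5.02% were as narrow or narrower, and the band's median width was 1741.5 bp. Within 20 kb of RN7SK on either side no other region of any list was present.

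**Figure D2:**
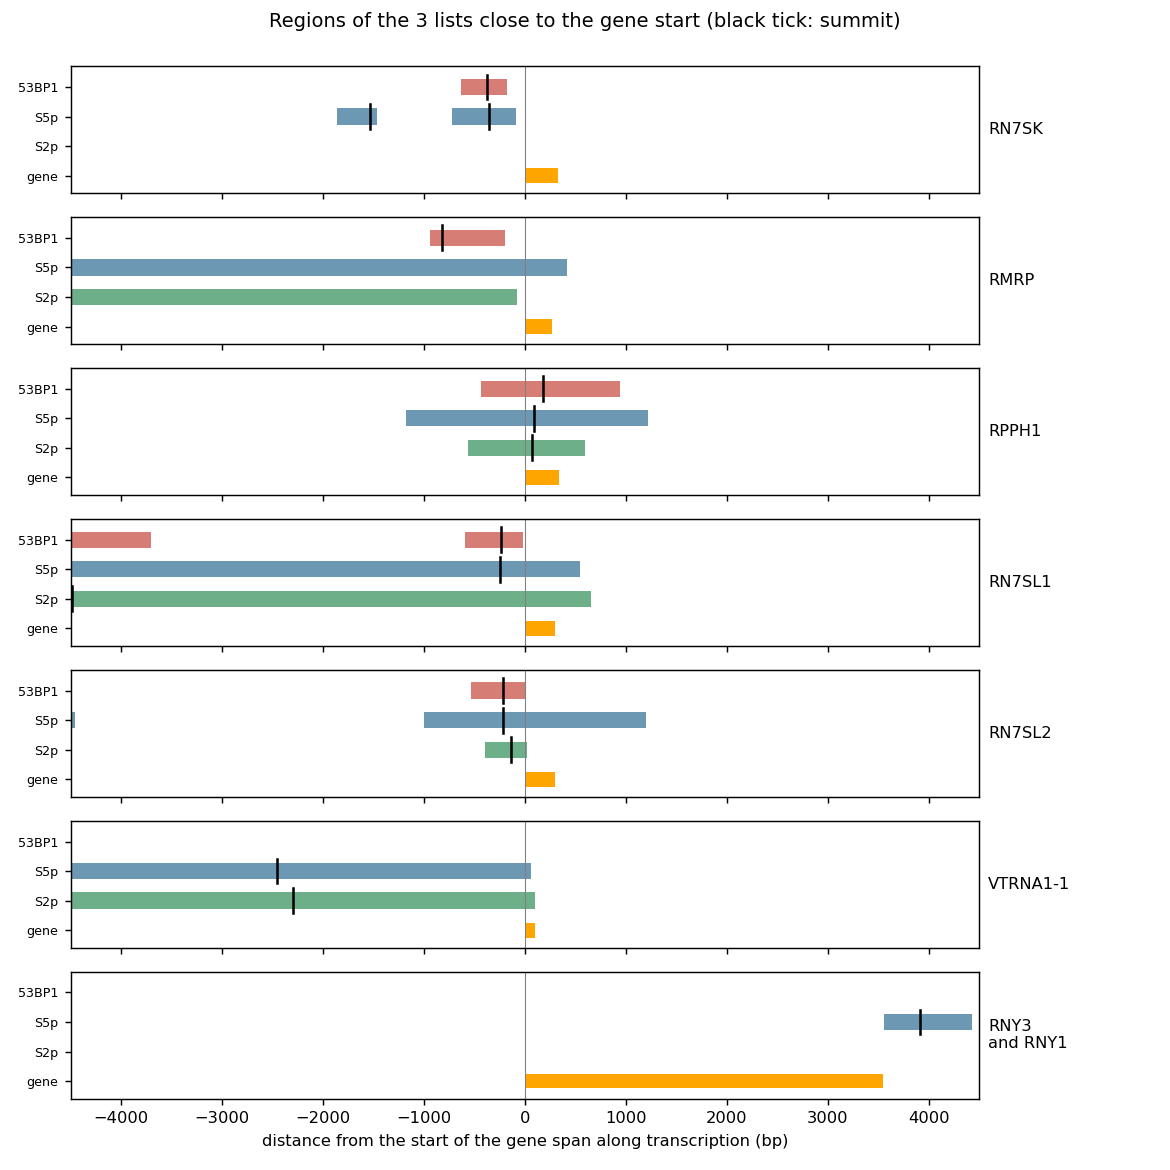
Regions of the 3 lists (coloured bars, 1 library each) within 4.5 kb of the start of each gene span, drawn along the direction of transcription in bp, with summits as black ticks and the gene span in orange. The 53BP1 and S5p summits lie before the gene at RN7SK, RN7SL1 and RN7SL2 and inside it at RPPH1. How reads matching several copies of a gene were treated is unknown.

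The 7SL genes shared the place of their 53BP1 and S5p summits but not the extent of Pol II. At RN7SL1 the 53BP1 region, chr14:50052708-50053280, had a fold of 9.94 and a summit 232 bp upstream of the gene, and it ended 17 bp before it. At RN7SL2 the 53BP1 region, chr14:50329558-50330097, had a fold of 8.02 and a summit 217 bp upstream, and it covered 10 bp of the gene. The S5p summits lay 243 bp upstream of RN7SL1 and 214 bp upstream of RN7SL2, so 53BP1 and S5p summits were 11 bp and 3 bp apart. Both genes thus had paired summits at a similar distance before the start. The 7SL genes have many near copies, and how reads matching several copies were treated is unknown. Whether signal over the genes themselves was missed is therefore uncertain.

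The S5p region of RN7SL1, chr14:50037681-50053841, was 16161 bp wide with a fold of 56.8, and it held 3 53BP1 regions. Of these, the one beside RN7SL1 had the highest fold; the others, chr14:50046638-50047138 and chr14:50047570-50049596, had folds of 4.40 and 6.51. The S5p region of RN7SL2, chr14:50328364-50330571, was 2208 bp wide with a fold of 20.05. The S2p region at RN7SL1, chr14:50035547-50053952, was the strongest of the group, with a fold of 71.4, rank 173 of 54600, and a width of 18406 bp. Its summit lay 4482 bp upstream of RN7SL1. The S2p region at RN7SL2, chr14:50329549-50329965, was the weakest of the group, with a fold of 2.99, rank 38687, and a width of 417 bp, with 5.23% of the list as narrow or narrower. Its summit lay 140 bp upstream of the gene. Among the S5p regions with S2p in each gene's own band, a fold at or above the member's occurred in 5.15% for RN7SL1 and 82.3% for RN7SL2.

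VTRNA1-1 lay at the very end of a Pol II region that began upstream. The S5p region, chr5:140084945-140090921, had a fold of 7.40, a width of 5977 bp and a summit 2452 bp upstream of the gene, on the ZMAT2 side. It ended inside VTRNA1-1, covering 63 of its 99 bp. The S2p region, chr5:140084858-140090958, had a fold of 17.4, a width of 6101 bp and a summit 2298 bp upstream, and it ended 1 bp past the gene. No 53BP1 region lay in the window; the nearest within 20 kb was 10628 bp upstream, with a fold of 4.86. In the band of the S5p region, with folds from 6.38 to 8.49, 8.47% of regions held 53BP1 and 49.4% held S2p. VTRNA1-1 was the member with the lowest S5p fold, and its S2p percentile, 95.8, was above its S5p percentile, 78.0.

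The Y RNA genes had S5p alone. The only region in their window was an S5p region, chr7:148684359-148685227, with a fold of 10.7 and a width of 869 bp. It began 9 bp past the end of the shared span, and its summit lay 365 bp past it, on the GHET1 side. No region of any list covered the span from 148680800 to 148684350. This region lies in the same S5p band as that of RN7SK, and RN7SK held 53BP1 while the Y RNA window did not. No 53BP1 region lay within 20 kb of the span.

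**Figure D3:**
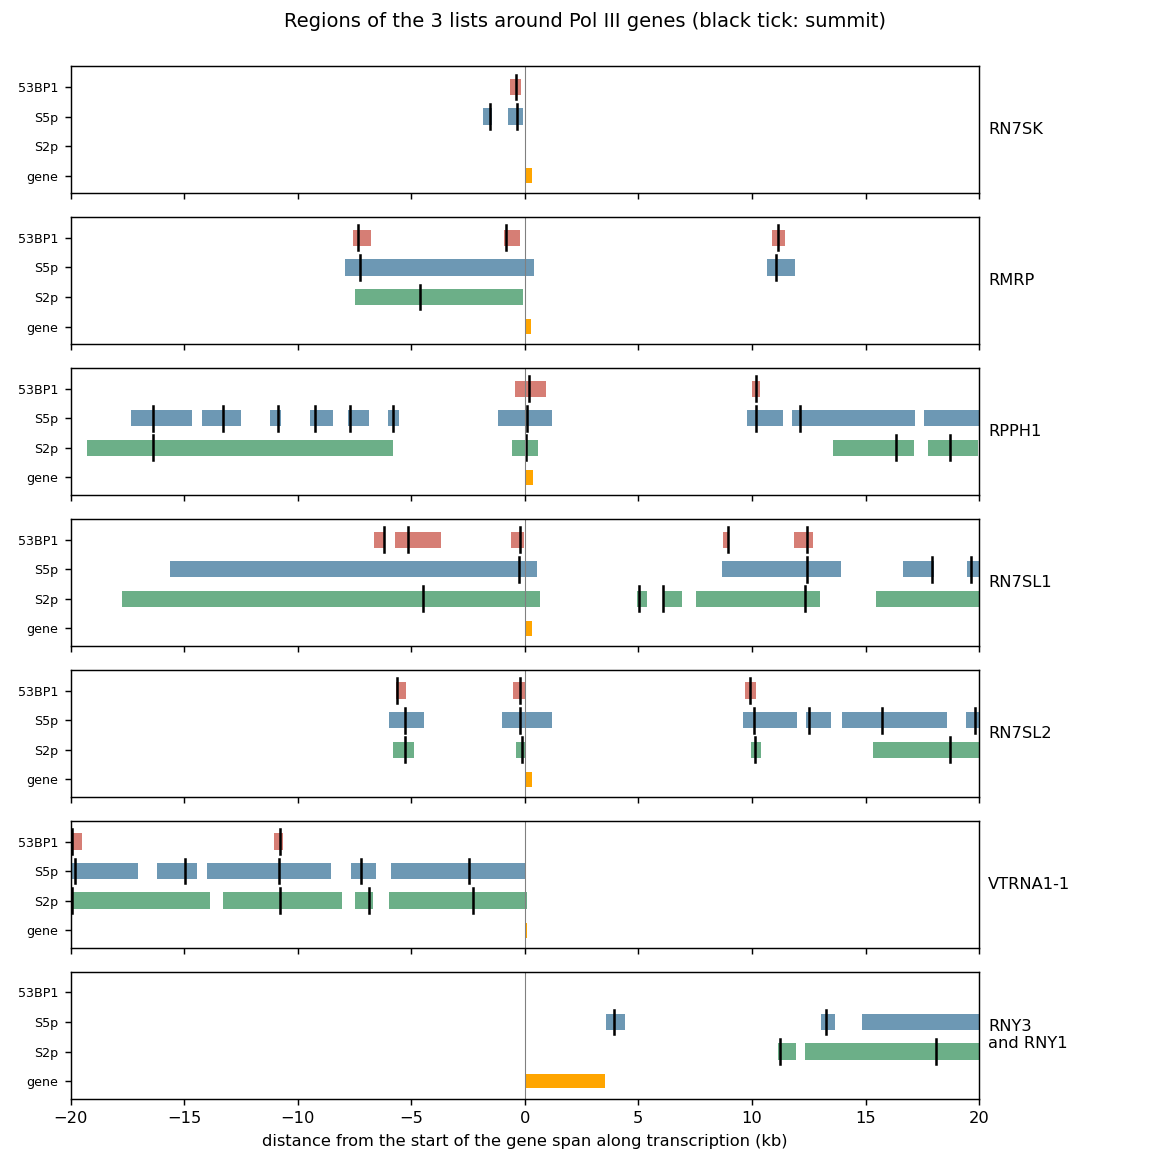
Regions of the 3 lists within 20 kb of the start of each gene span, in kb along the direction of transcription, with summits as black ticks and the gene span in orange (1 library per list). The region at RN7SK stands alone, while RN7SL1 and VTRNA1-1 lie at the end of S5p and S2p regions that extend upstream, of 16161 and 5977 bp for S5p.

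Across the members, 5 of 8 S5p regions held a 53BP1 region, where 15.2% of all S5p regions did. That background mixes weak and strong S5p regions. Of the 8, 6 lay in the strongest 20% of the S5p list by fold, and 5 of these 6 held 53BP1, beside 71.4% of all S5p regions that strong. The counts at the Pol III genes were thus near what the strength of their S5p regions has in the list as a whole. The S5p regions without 53BP1, at VTRNA1-1, at the Y RNA genes and the weak one near RN7SK, fell in bands where 8.47%, 27.4% and 0.128% of regions held it. S2p lay on 5 of 8 member S5p regions, beside 60.2% of all S5p regions, and on 4 of the 6 strong ones, beside 76.5%. All 5 of the 53BP1 regions lay on S5p, as did 97.6% of the 53BP1 list. The strongest region of the window was the strongest of its list within 100 kb in 1 of 5 windows for 53BP1, 1 of 7 for S5p and 1 of 5 for S2p, beside 44.8%, 11.8% and 10.0% of all regions.

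**Figure D4:**
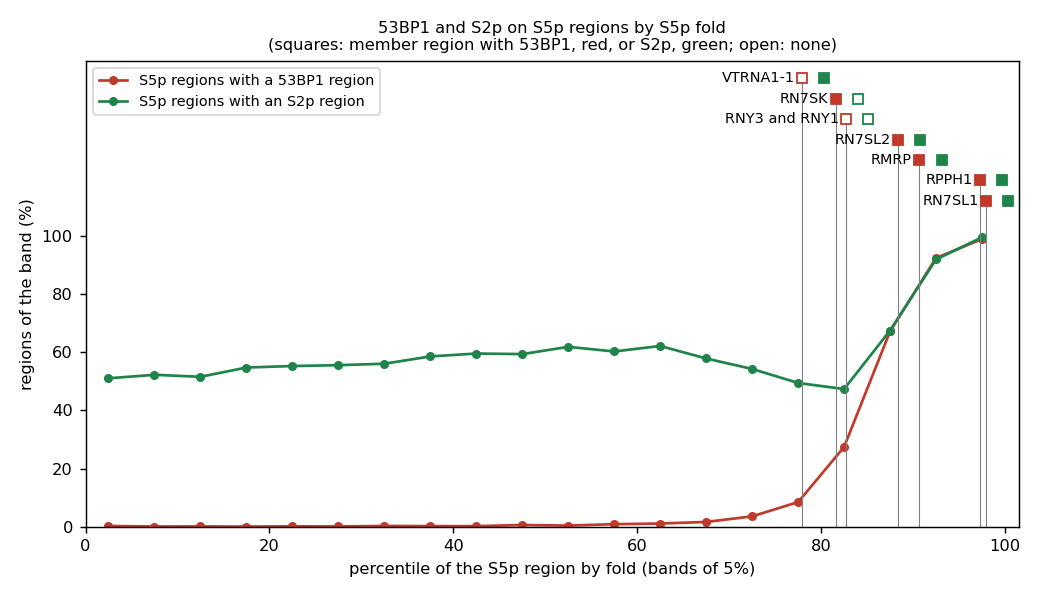
Percent of S5p regions that hold a 53BP1 region (red) or an S2p region (green) in 20 bands of 5% of the S5p list by fold, with the strongest S5p region of each window marked at its percentile (1 library per list). Filled squares mark members with 53BP1 (red, placed at the percentile) or S2p (green, drawn beside it), and open squares mark their absence. The red curve rises from 8.47% to 98.8% over the bands where the members lie.

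Distances between summits were set beside those of the whole lists. For 11250 53BP1 summits inside an S5p region, the median distance to the S5p summit was 78 bp. RN7SL2 (3 bp), RN7SL1 (11 bp) and RN7SK (14 bp) were closer than that, RPPH1 (88 bp) was near the median, and RMRP (6456 bp) was farther, as its S5p summit was at the other end of the region. For 25086 S2p summits inside an S5p region, the median was 236 bp. RPPH1 (23 bp), RN7SL2 (74 bp) and VTRNA1-1 (154 bp) were closer, and RMRP (2684 bp) and RN7SL1 (4239 bp) were farther. The S2p fold did not follow this distance at every member: it was 5.36 at RPPH1, 2.99 at RN7SL2 and 17.4 at VTRNA1-1, and 20.3 at RMRP and 71.4 at RN7SL1.

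**Figure D5:**
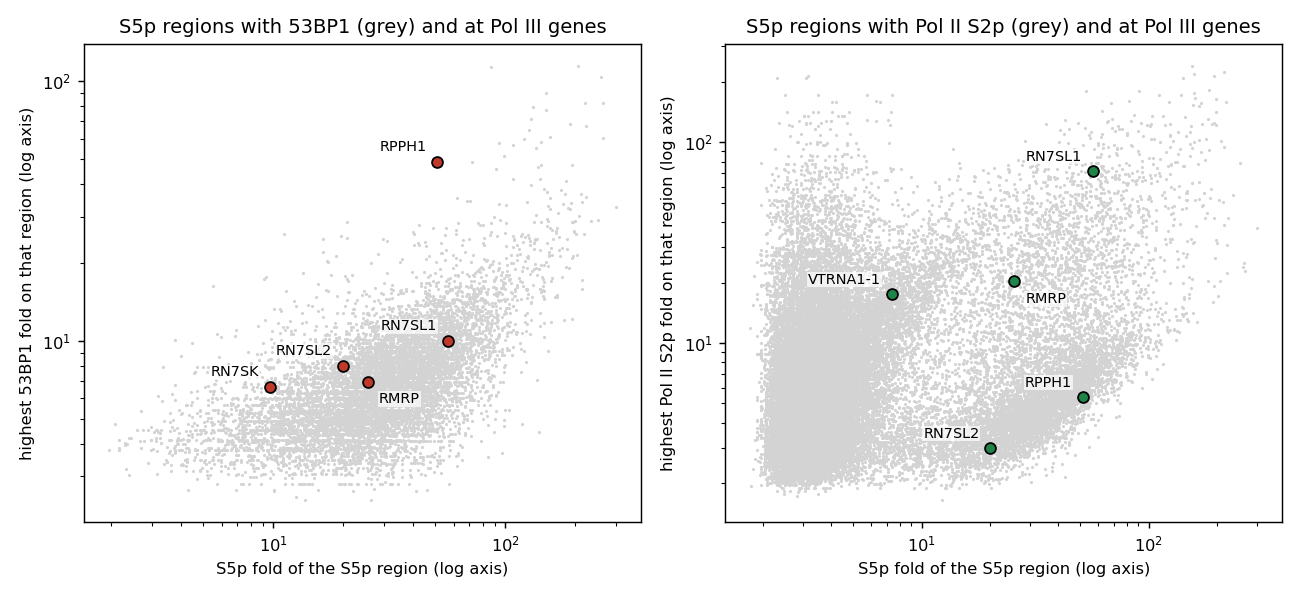
Each grey point is an S5p region, with its S5p fold on the x axis and the highest 53BP1 fold (left) or S2p fold (right) on it on the y axis, all log axes, 1 library per list. Coloured points are the member regions. For RMRP the 53BP1 value plotted is the 6.95 of the region at the far end of its S5p region. RPPH1 lies above nearly all regions of similar S5p fold on the left and in the lower part of the cloud on the right.

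The order of the S5p folds was RN7SL1, RPPH1, RMRP, RN7SL2, RNY3 and RNY1, RN7SK and VTRNA1-1, from 56.8 to 7.40. With 1 library per ChIP, it is unknown which neighbours in that order would differ beyond replicate spread. Genes with external promoters (RPPH1, RMRP, RN7SK, and RNY3 and RNY1, with 51.1, 25.6, 9.70 and 10.7) and those with internal elements (RN7SL1, RN7SL2 and VTRNA1-1, with 56.8, 20.05 and 7.40) overlapped in S5p fold. Some members have many near copies in the genome. The RefSeq table names 684 7SL and 293 7SK pseudogenes, 16 each of RNY1 and RNY3, 2 of RPPH1 and 1 of RMRP. How reads that match several copies were treated is not given in the sources used here, so the absence of a region over RN7SK, RNY3 or RNY1 is uncertain, and its relation to these copies was not tested. Read depth was unknown, and a missing region means that none was detected.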

How the data were processed

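Region lists of 3 ChIPs (53BP1, Pol II S5p and Pol II S2p), 1 library each, were used as deposited by the authors in hg19. The submitters' processing notes name hg19 and bcl2fastq 2.20.0.422. What aligned the reads and called the regions, against which control, and whether reads were pooled first is not given in the sources used here. Each region carries a fold enrichment (the authors' ratio over background), the authors' −log10 q-value and a summit offset. The deposited −log10 p-value and the deposited score were not used.

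Rows outside chromosomes 1 to 22 and X (1, 2 and 1) were dropped, and positions were made 1-based. The members' hg19 spans, set with the choice of members, were widened by 2 kb. The members and lists were chosen with earlier results of these data known. The named genes are the 8 members and their RefSeq neighbours, and every region in a window is given. The direction of transcription was taken from general knowledge of the genes. No annotation of the hg19 build was at hand, so other Pol III genes were not located, and no cell type markers were checked. The promoter set had no entry for any member, so only windows of neighbouring genes were searched for motifs. Those of PARP2 and CCDC107 may also hold sequence upstream of RPPH1 and RMRP, which was not examined separately. Percentiles give the percent of the list with a fold at or below the region's. Lists were joined by overlap of at least 1 bp. The overlap and ranking code was tested on simulated data. Alternatives are given in the closing section. Python 3.11.15, numpy 2.4.6, pandas 2.3.3 and matplotlib 3.10.9 were used.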

Additional observations from a re-analysis of the deposited data

How the results depend on the processing

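No paired analysis was possible because there was 1 library per antibody. Alternatives were the unwidened span, a widening by 5 kb, a −log10 q-value of at least 5, the upper 50% of each list by fold, ranking by −log10 q-value, stricter overlaps and surroundings of 500 kb. Of 87 alternative values of the counts and medians, 61 kept their value within the set limits and 26 moved. With the unwidened span, 53BP1 was left in 2 windows, RPPH1 and RN7SL2, S5p in 5 windows and S2p in 4. The median percentiles were then 86.5 (53BP1), 90.7 (S5p) and 86.4 (S2p), and the median widths 956.5, 5977 and 3628 bp. The median summit distances were 108.5, 243 and 1219 bp, against 232, 358 and 2298 bp. With 5 kb, the S5p percentile was 89.6 and the distances 365 (S5p) and 4482 bp (S2p). A −log10 q-value of at least 5 gave percentiles of 62.6, 79.75 and 92.3 for 53BP1, S5p and S2p. The upper 50% gave 58.6, 76.9 and 92.4, widths of 556.5 (53BP1) and 6746 bp (S2p), and distances of 224.5 (53BP1) and 3390 bp (S2p). Percentiles in these shortened lists are lower by construction. Ranking by −log10 q-value gave 90.67 (S5p) and 96.7 (S2p). Within 500 kb, 0 of the 7 S5p regions were the strongest. Of 77 percentiles of single members, 33 stayed within an exact binomial interval around the main percentile. That interval is only a set limit and measures no replicate spread. Cases in which a member's region dropped out of the list or window are not among the 77. The S2p percentile at RN7SL2 went from 29.2 to 60.02 by −log10 q-value, to 71.3 with 5 kb, where another region was the strongest, and to 1.67 at the −log10 q-value limit. In the shortened lists, 53BP1 percentiles were 2.82 at RMRP with that limit, and 16.75 at RN7SK and 46.3 at RN7SL2 in the upper 50%. Motif searches had no alternative.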

Other observations

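The region at RN7SL2 was flanked by others in which all 3 lists met. On its upstream side, chr14:50334019-50335530 (hg19) had an S5p fold of 22.7, with a 53BP1 region of fold 3.95 and an S2p region of fold 4.72 and 963 bp. On its downstream side, where the RefSeq table places RN7SL3 next, chr14:50317592-50319946 had an S5p fold of 27.7, with a 53BP1 region of fold 5.32 and an S2p region of fold 4.14 and 448 bp. Both had a higher S5p fold than the region at RN7SL2 (20.05), while its 53BP1 fold (8.02) was the highest of these. The lists do not show which gene these regions belong to.

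Upstream of VTRNA1-1, on the side of ZMAT2, chr5:140076861-140082340 had an S5p fold of 42.1, with an S2p region of fold 29.6 and a 53BP1 region of fold 4.86. Farther out, chr5:140069812-140073803 had an S5p fold of 63.0 with a 53BP1 region of fold 6.73 and an S2p region of fold 7.52. Past the Y RNA genes, chr7:148695637-148727363 was a 31727 bp S5p region with a fold of 84.4.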
